A study of Mus musculus with 9 samples.

Results

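Levels of 29 genes that make, move, store and export cholesterol were followed in mouse embryonic stem cells after 24 h with either of 2 small molecules. The rule that picks the genes is a list of names, the enzymes of sterol synthesis, the SREBP2 pathway that controls them, and the transfer, esterification and export arm, and it uses no measured value, although the list was drawn up with earlier results of these data known. All 29 had a probe on the array, 11 of them with 2 probes, and all 29 were well above background on all 9 arrays, with none saturated. They were 29 of the 16089 named genes, and of the 26864 features in all, that passed the filter on dim probes and were tested together.

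The cells were the J1 line, of strain 129S4/SvJae, bought from ATCC, adapted to gelatin and grown on it in a serum replacement medium with LIF at 1000 U/mL, which every group received. The groups of 3 arrays each, all measured at 24 h, were DMSO as the control, CHIR99021 at 3 µM, and AICAR at 1 mM. CHIR99021 inhibits the kinase GSK3 and so stabilises beta-catenin, and AICAR is a nucleoside that cells turn into an AMP mimic that activates the kinase AMPK. The labels number the replicates and do not say whether they were separate cultures, so the p-values cover variation among these arrays alone, and that variation may be technical.

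Cholesterol is built from acetyl-CoA through mevalonate and isoprenoid units to squalene, which is folded into lanosterol and then trimmed and desaturated to cholesterol. Most of these enzyme genes are transcribed by SREBP2, which SCAP escorts out of the endoplasmic reticulum when sterol is scarce and which INSIG proteins hold back when sterol is plentiful. When sterol accumulates, oxysterols activate the LXR receptors, which turn on genes of export and of lipoprotein receptor decay. Proliferating stem cells need this supply for new membrane.

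The promoters show the sequence setting of the list. A window from 250 bases before to 50 bases after the transcription start, from RefSeq (GRCm38.p6), was at hand for 24 of the 29 genes. A CCAAT box (the NF-Y letters CCAAT, on either strand) stood in 20 of the 24 (83.3%), against 42.7% of the 12787 tested genes with a window. The Sp1 letters GGGCGG stood in 22 of the 24 (91.7%), against 61.9% of those tested genes. The E-box CACGTG was in 6 (25%, against 10.9%). The exact sterol regulatory element TCACCCCAC was found in Hmgcs1 only, or 1 of 24, against 0.727% of the tested genes, and leaving 1 base free (TCACNCCAC) added no other member, against 1.502%. The TCF/LEF letters CTTTGAT were in 0 of 24 (3.28% of the tested genes) and the LXR direct repeat DR4 in 0 of 24, as in 0 of the 12787 tested genes, while its single site AGGTCA was in 3 (15.9% of the tested genes). These are letter matches in short windows, and overlapping matches of different motifs were all counted. The 24 genes had 30 windows among them, and a gene was counted if any of its windows held the motif. Stretches of 150 bases from 7 genes are printed. In each part of the pathway, the gene with the largest rise with AICAR among those with exactly 1 window was taken. These were the enzyme genes Mvd at chr8:122443423-122443572 (minus strand), Lss at chr10:76531455-76531604 (plus strand) and Cyp51 at chr5:4104698-4104847 (minus strand). The others so taken were the regulator Insig1 at chr5:28071262-28071411 (plus strand) and the LXR target Mylip at chr13:45389592-45389741 (plus strand). Added to these were Hmgcs1 at chr13:119690201-119690350 (plus strand), for its element, and Mvk at chr5:114444119-114444268 (plus strand), which passed neither test against DMSO. Each reads 5′ to 3′ on the gene's strand, and capitals mark the sterol element, CCAAT and GGGCGG on either strand.
Hmgcs1: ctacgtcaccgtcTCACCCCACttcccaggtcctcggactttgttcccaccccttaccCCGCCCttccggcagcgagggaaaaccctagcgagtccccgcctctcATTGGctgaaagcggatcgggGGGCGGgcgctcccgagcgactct
Mvd: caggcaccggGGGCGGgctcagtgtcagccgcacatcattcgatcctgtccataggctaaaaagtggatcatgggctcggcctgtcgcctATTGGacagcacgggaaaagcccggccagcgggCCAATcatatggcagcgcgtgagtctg
Lss: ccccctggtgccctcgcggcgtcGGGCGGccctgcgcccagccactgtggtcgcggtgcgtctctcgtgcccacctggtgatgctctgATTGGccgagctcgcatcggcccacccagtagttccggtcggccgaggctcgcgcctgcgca
Cyp51: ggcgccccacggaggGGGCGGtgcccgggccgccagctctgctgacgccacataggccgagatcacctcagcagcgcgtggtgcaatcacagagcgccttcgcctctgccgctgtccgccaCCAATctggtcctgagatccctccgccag
Insig1: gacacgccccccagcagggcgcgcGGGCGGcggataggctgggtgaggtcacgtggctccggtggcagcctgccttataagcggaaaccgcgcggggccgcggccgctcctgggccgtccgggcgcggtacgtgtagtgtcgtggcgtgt
Mylip: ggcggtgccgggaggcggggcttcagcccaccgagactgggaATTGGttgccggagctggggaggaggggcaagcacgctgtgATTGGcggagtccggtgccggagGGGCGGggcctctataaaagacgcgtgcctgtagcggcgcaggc
Mvk: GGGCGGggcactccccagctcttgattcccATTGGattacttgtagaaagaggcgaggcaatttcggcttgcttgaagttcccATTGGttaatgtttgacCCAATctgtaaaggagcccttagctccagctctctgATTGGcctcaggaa
The stretches shown held 4 CCAAT boxes for Mvk, 2 each for Mvd and Mylip, 1 each for Hmgcs1, Lss and Cyp51, and 0 for Insig1. The CCAAT box of Insig1 lay in its window outside the stretch printed.

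The arrays were alike within groups. Probe values correlated at 0.995 to 0.997 within a group and at 0.973 to 0.983 between groups, and 62.8% to 67.2% of spots were well above background. The median SD of a feature was 0.07 in DMSO, 0.09 with CHIR99021 and 0.11 with AICAR on the log2 scale. Each group sat on a slide and a scan of its own, so slide and treatment cannot be told apart in any comparison here. AICAR replicates 1 and 3 had lower spike-in signal than the other arrays (AICAR arrays 13.09 to 13.46 on the log2 scale, DMSO arrays 13.46 to 13.51). All 10 embryonic stem cell markers were detected on all 9 arrays. The log2 of their summed signal was 9.24 to 9.28 in DMSO, 9.20 to 9.27 with CHIR99021 and 9.31 to 9.41 with AICAR. Dppa5a, the brightest, weighs most in that sum, with group means of 8.39, 8.32 and 8.44 in DMSO, CHIR99021 and AICAR. Other members, looked at after the sum was seen, went different ways. Klf4 had means of 4.13, 5.19 and 4.96 in that order, Fgf4 of 5.62, 4.92 and 6.08, and Utf1 of 5.80, 4.58 and 4.64. The summed level of 10 fibroblast markers was 1.10 to 1.21 in DMSO, 1.20 to 1.28 with CHIR99021 and 1.73 to 1.99 with AICAR, and Postn, Lum and Twist2 were detected on no array. The members of that sum, looked at after the sums were seen, went different ways: Thy1 had group means of 0.33, 0.13 and 1.24 in DMSO, CHIR99021 and AICAR and Pdgfrb of -2.74, -0.62 and -0.42, while Col1a1, Col1a2, Col3a1, Dcn and Col6a3 had lower means with AICAR than in DMSO, and Dcn was detected on 0 of 3 AICAR arrays. The 10 endoderm markers summed to 0.70 to 0.90, 0.49 to 0.64 and 0.51 to 0.65 in the same order. These markers also went different ways. Cubn had group means of -0.60, -1.85 and -3.41, while Gata6 had -2.15, -1.85 and -1.15 and Sox17 had -3.61, -2.39 and -2.87. The 6 mesoderm markers summed to 3.19 to 3.33, 4.20 to 4.39 and 3.54 to 3.74. Of these T had group means of -5.61, 2.66 and -5.45, Kdr of 3.23, 3.69 and 3.61, and Hand1 and Mixl1 were detected on no DMSO or CHIR99021 array. In bulk RNA, fewer cells of a type and less RNA per cell cannot be told apart, and the part of these markers in the results was not tested.

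Most of the list was higher with AICAR, and with CHIR99021 it moved both ways. With AICAR, 19 of the 29 genes were called higher than DMSO and 4 lower (limma, adjusted p under 0.05 over all features), where 30.9% of all features were called higher and 29.6% lower. The median change of the list was 0.44 on the log2 scale, against 0.03 over all features. At least 1.5-fold, 12 genes were called higher (14.8% of all features) and 0 lower (12.2%), the latter also at an unadjusted p under 0.05. With CHIR99021, 6 genes were called higher and 9 lower, where 30.4% of all features were called higher and 20.5% lower, with a list median of -0.03 against 0.07. At least 1.5-fold, 3 were called higher (10.5% of all features) and 0 lower (8.94%), again also at an unadjusted p under 0.05. With spike-in scaling the CHIR99021 split was 4 higher and 4 lower and that of all features 4504 and 4303, in place of 8180 and 5516. The same scaling gave AICAR 20 higher and 1 lower in the list, and 9705 and 3781 over all features in place of 8309 and 7943, with the all-feature median at 0.21. Scaling to the 75th percentile of the probes detected on every array turned the CHIR99021 split of all features to 6596 higher and 6696 lower, with 5 and 10 in the list. Leaving out the 2 AICAR arrays of lower spike-in signal leaves 1 AICAR array, which is then assumed to vary like the other groups, and the counts so obtained were 17 higher and 4 lower. Arrays of a treatment that did not overlap DMSO were common. With AICAR 21 of the 29 genes lay above DMSO without overlap and 5 below, against 34.3% and 32.8% of all features. With CHIR99021 11 lay above and 10 below, against 37.5% and 25.8%. Both treatments were set against the same 3 DMSO arrays, so their changes share that control.

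**Figure D1:**
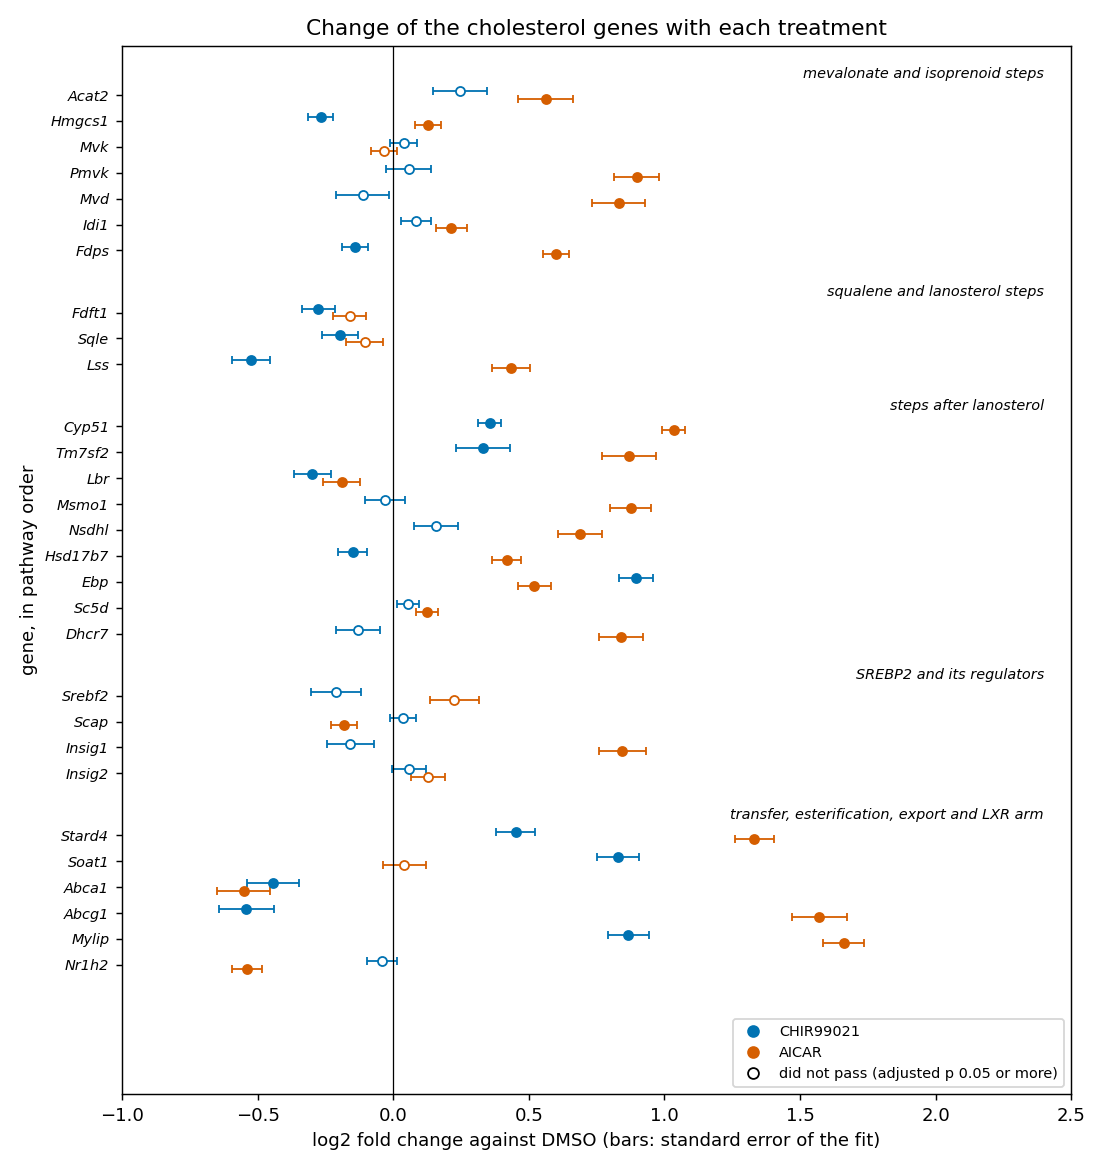
Change of each of the 29 genes against DMSO on the log2 scale (x axis), in pathway order (y axis), with CHIR99021 in blue, AICAR in orange, bars for the standard error of the fit and open points for adjusted p of 0.05 or more. The AICAR points of 19 genes lie to the right of 0 and filled, from Sc5d at 0.12 to Mylip at 1.66.

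**Figure D2:**
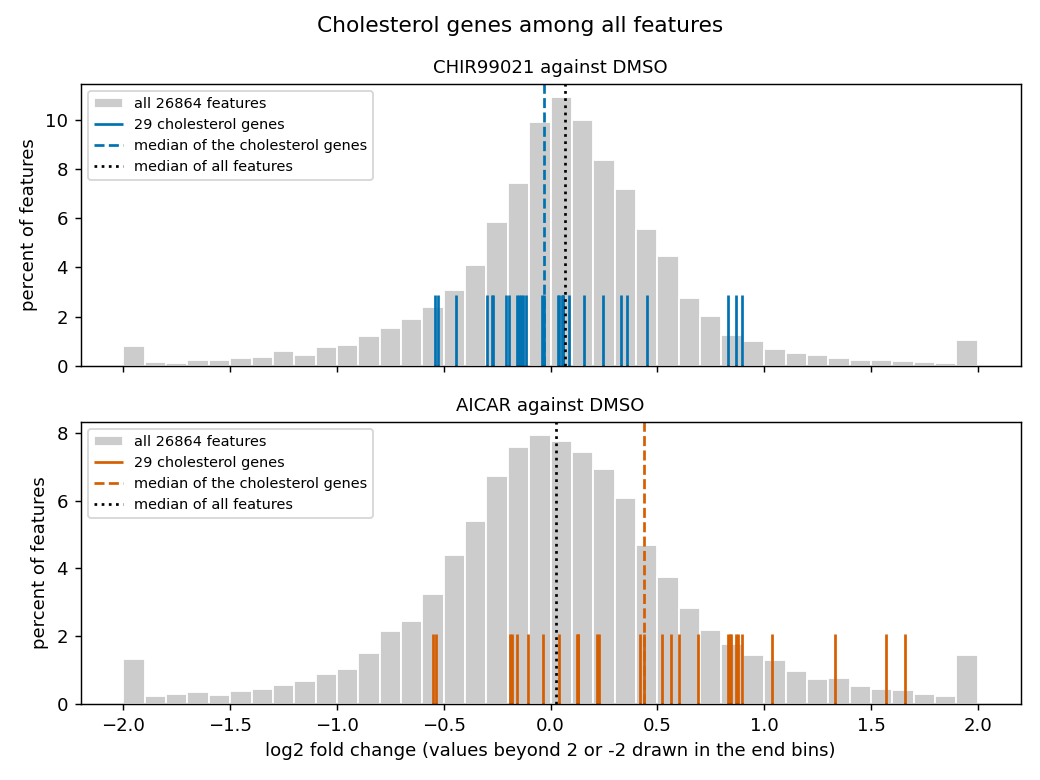
Share of all 26864 features (y axis, percent) by log2 change against DMSO (x axis), with a coloured mark for each of the 29 genes, a dashed line at their median and a dotted line at that of all features. The list's median is at 0.44 with AICAR and at -0.03 with CHIR99021, against 0.03 and 0.07.

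The mevalonate and isoprenoid steps rose with AICAR in 6 of 7 genes, where 30.9% of all features did, and 2 of the 7 fell with CHIR99021, where 20.5% of all features did. The largest rises were those of Pmvk, Mvd and Fdps, at 1.52-fold to 1.86-fold. Pmvk (NM_026784), phosphomevalonate kinase, read 4.26, 4.29 and 4.25 in DMSO, 4.35, 4.30 and 4.33 with CHIR99021 and 5.37, 5.07 and 5.06 with AICAR, as log2 signal relative to the 75th percentile of each array. The AICAR arrays stood apart from the other 6, and AICAR replicate 1 was the highest. The change with AICAR was 0.90 ± 0.08 (SE, limma adjusted p = 4.34e-05), and that with CHIR99021 was 0.06 ± 0.08 (adjusted p = 0.598).

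Mvd (NM_138656), the decarboxylase that makes isopentenyl diphosphate, read 2.12, 2.06 and 2.11 in DMSO, 1.92, 2.09 and 1.94 with CHIR99021 and 3.13, 2.91 and 2.74 with AICAR. The CHIR99021 arrays overlapped DMSO and the AICAR arrays did not. Its change with AICAR was 0.83 ± 0.10 (limma adjusted p = 0.000161). Fdps, which joins isoprenoid units into farnesyl diphosphate, read 5.82, 5.89 and 5.89 in DMSO, 5.69, 5.77 and 5.71 with CHIR99021 and 6.51, 6.44 and 6.44 with AICAR. No pair of groups overlapped, and the gene rose by 0.60 ± 0.05 with AICAR (limma adjusted p = 2.02e-05) and fell by 0.14 with CHIR99021 (adjusted p = 0.0407). The CHIR99021 call of Fdps was lost when DMSO replicate 2 or 3, CHIR99021 replicate 1 or 3, or AICAR replicate 2 was left out (changes of -0.14 to -0.12, limma adjusted p 0.0514 to 0.123). Spike-in scaling also ended that call (limma adjusted p = 0.230).

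Hmgcs1 (NM_145942), the HMG-CoA synthase at the entry to the pathway, read 5.83, 5.82 and 5.73 in DMSO, 5.53, 5.53 and 5.50 with CHIR99021 and 5.92, 5.88 and 5.96 with AICAR. The groups did not overlap, with CHIR99021 lowest and AICAR highest. It fell by 0.27 with CHIR99021 (limma adjusted p = 0.00207), and its rise with AICAR was small, at 0.13 ± 0.05 (adjusted p = 0.0449). Under spike-in scaling the CHIR99021 call was lost (-0.31, limma adjusted p = 0.0685). Leaving out any 1 array other than AICAR replicate 2 ended the AICAR call (changes of 0.10 to 0.15, limma adjusted p 0.0558 to 0.153). Acat2, the cytosolic thiolase that makes acetoacetyl-CoA, rose by 0.56 ± 0.10 with AICAR (limma adjusted p = 0.00166). Its change with CHIR99021 was 0.25 ± 0.10 (adjusted p = 0.0730, or 0.0171 without AICAR replicate 1). Idi1, the isomerase of isopentenyl diphosphate, rose by 0.22 ± 0.06 with AICAR (limma adjusted p = 0.0107). Mvk, mevalonate kinase, passed neither test, at -0.03 with AICAR (0.13 and limma adjusted p = 0.0366 under quantile normalization) and 0.04 with CHIR99021, and its DMSO arrays all read 4.03.

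**Figure D3:**
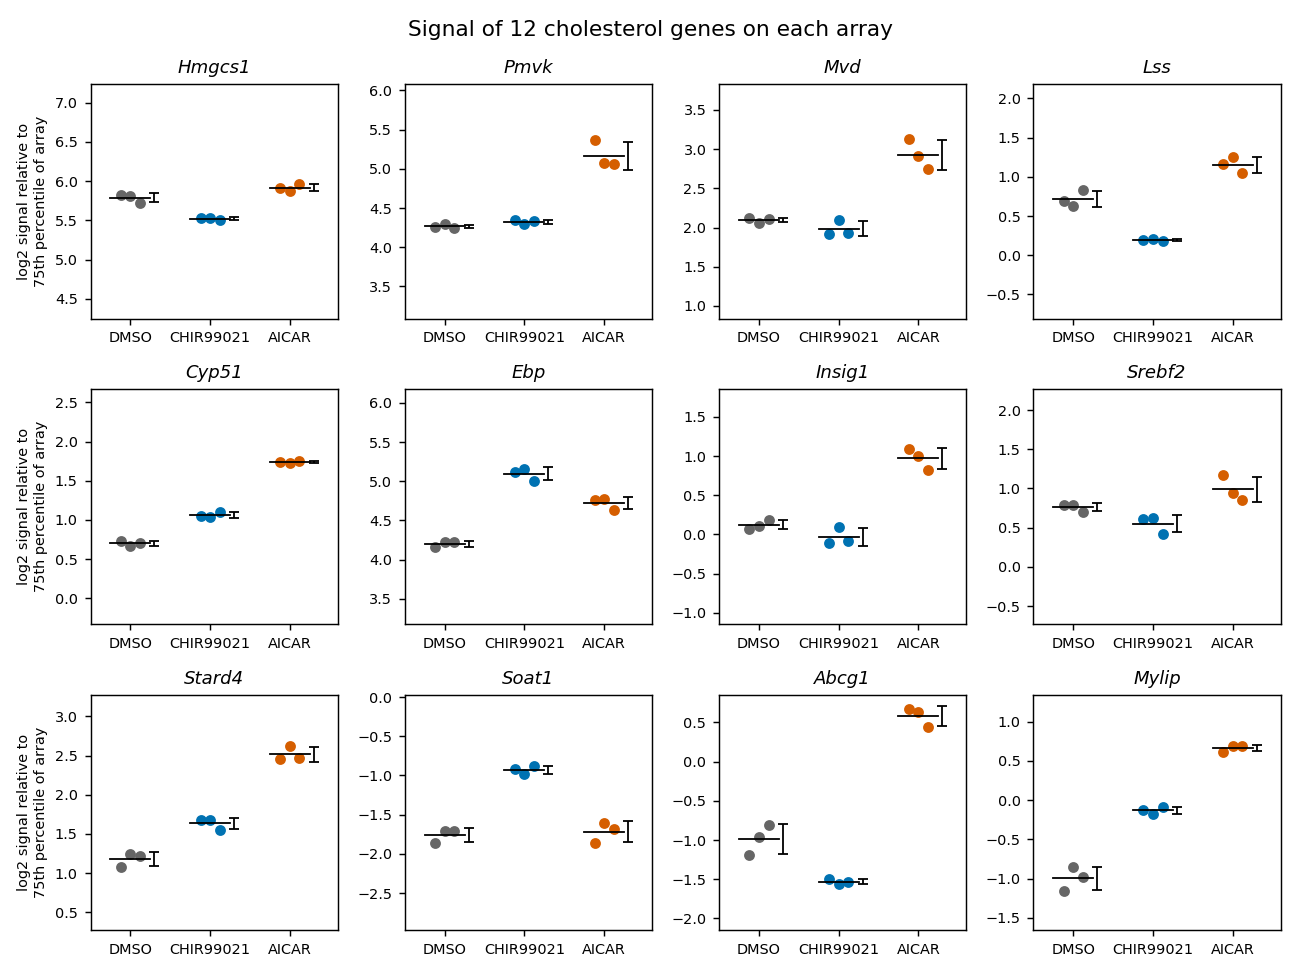
Log2 signal relative to the 75th percentile of the array (y axis, a 3-unit span in each panel) on each of the 9 arrays for 12 of the genes, with the group mean as a line and the SD over 3 arrays as a bar. The AICAR arrays of Cyp51, Stard4, Abcg1 and Mylip lie above all others, and Soat1 and Ebp are highest on the CHIR99021 arrays.

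Of the 3 genes of the squalene and lanosterol steps, 1 rose with AICAR and 0 fell (limma, with 1 lower at an unadjusted p under 0.05). Of all features, 30.9% rose and 29.6% fell with AICAR. All 3 genes fell with CHIR99021, where 20.5% of all features did. Lss (NM_146006), lanosterol synthase, read 0.70, 0.63 and 0.83 in DMSO, 0.20, 0.20 and 0.18 with CHIR99021 and 1.17, 1.25 and 1.04 with AICAR. The 3 groups were apart, with DMSO between the treatments. It rose by 0.44 ± 0.07 with AICAR (limma adjusted p = 0.00102) and fell by 0.52 with CHIR99021 (adjusted p = 0.000525). Fdft1, squalene synthase, the first enzyme committed to sterols, fell by 0.28 with CHIR99021 (limma adjusted p = 0.00631), a call lost under spike-in scaling (adjusted p = 0.0687), with the mean of its probes (0.0516) and on its dimmer probe (0.165). Its 3 AICAR arrays were also below DMSO, by a change of -0.16 ± 0.06 that did not pass (adjusted p = 0.0513, or 0.0132 without AICAR replicate 1). Sqle, squalene epoxidase, a rate-limiting step, fell by 0.20 with CHIR99021 (limma adjusted p = 0.0404) and was -0.11 ± 0.07 with AICAR (adjusted p = 0.207). Its CHIR99021 call was lost without any 1 of 6 arrays, namely DMSO replicate 1 or 3, CHIR99021 replicate 1 or 2, or AICAR replicate 2 or 3 (limma adjusted p 0.0503 to 0.123). Spike-in scaling also ended the CHIR99021 call of Sqle (limma adjusted p = 0.118).

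After lanosterol, 8 of the 9 genes rose with AICAR (30.9% of all features) and 3 rose with CHIR99021 (30.4%), while 1 and 2 were called lower (29.6% and 20.5%). Among those called lower in both is Lbr, whose probes oppose each other: its dimmer probe turns the counts to 9 higher and 0 lower with AICAR and 4 and 1 with CHIR99021, and those of all 29 genes to 20 and 3 and to 7 and 8. Cyp51 (NM_020010), the lanosterol 14-demethylase, read 0.73, 0.67 and 0.71 in DMSO, 1.05, 1.03 and 1.10 with CHIR99021 and 1.74, 1.72 and 1.76 with AICAR. Replicates differed by less than 0.1 and the groups were far apart. It rose by 1.04 ± 0.04 with AICAR, or 2.05-fold (limma adjusted p = 7.41e-07), and by 0.36 ± 0.04 with CHIR99021 (adjusted p = 0.000269, or 0.0571 under spike-in scaling). Ebp (NM_007898), the sterol isomerase named for binding emopamil, read 4.16, 4.23 and 4.22 in DMSO, 5.12, 5.16 and 5.01 with CHIR99021 and 4.76, 4.77 and 4.63 with AICAR. It was the 1 synthesis gene on the list that was called higher with CHIR99021 than with AICAR, by 0.38 ± 0.06 (limma adjusted p = 0.000972), and under spike-in scaling this difference was 0.15 and did not pass (adjusted p = 0.268). It rose by 0.90 ± 0.06 with CHIR99021 (limma adjusted p = 1.45e-05) and by 0.52 ± 0.06 with AICAR (adjusted p = 0.000170).

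Dhcr7 (NM_007856), which makes cholesterol from its 7-dehydro precursor, read 1.07, 0.99 and 1.10 in DMSO, 0.84, 0.92 and 1.01 with CHIR99021 and 2.06, 1.81 and 1.81 with AICAR. The CHIR99021 and DMSO arrays overlapped and the AICAR arrays stood above both. Its rise with AICAR was 0.84 ± 0.08 (limma adjusted p = 5.98e-05). Msmo1 and Nsdhl, which remove the 4-methyl groups together with Hsd17b7, rose with AICAR by 0.88 ± 0.08 and 0.69 ± 0.08 (limma adjusted p = 2.88e-05 and 0.000169). With CHIR99021 they changed by -0.03 ± 0.08 and 0.16 ± 0.08 and did not pass (adjusted p = 0.768 and 0.144). Nsdhl did pass with CHIR99021 on its dimmer probe, at 0.55 ± 0.11 (limma adjusted p = 0.00446, over all probes). The mean of its probes also passed, at 0.35 (limma adjusted p = 0.00192). Hsd17b7 rose by 0.42 ± 0.05 with AICAR (adjusted p = 0.000255) and was called lower by a change of -0.15 with CHIR99021 (adjusted p = 0.0472). Leaving out any 1 array other than CHIR99021 replicate 1 ended that CHIR99021 call (limma adjusted p 0.0545 to 0.145), as did spike-in scaling (0.200) and the mean of its probes (0.755).

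The C14 reductase step has 2 genes on the list. Tm7sf2 rose by 0.87 ± 0.10 with AICAR (limma adjusted p = 0.000150) and by 0.33 ± 0.10 with CHIR99021 (adjusted p = 0.0252). The CHIR99021 call was lost without DMSO replicate 1 or 2 or CHIR99021 replicate 2 or 3 (adjusted p 0.0574 to 0.0782), and under spike-in scaling (0.172) and on the dimmer probe (0.410). Lbr, the lamin B receptor, an inner nuclear membrane protein that carries the same reductase activity, was called lower with both treatments, by changes of -0.30 with CHIR99021 (limma adjusted p = 0.00713) and -0.19 with AICAR (adjusted p = 0.0400). Its dimmer probe went the other way, at 0.32 ± 0.09 with CHIR99021 (limma adjusted p = 0.0256) and 0.39 ± 0.09 with AICAR (adjusted p = 0.00790), so no direction is given for this gene. Its AICAR call was also lost without any 1 DMSO array, CHIR99021 replicate 1 or 3, or AICAR replicate 1 (adjusted p 0.0514 to 0.109). Sc5d, the C5 desaturase, rose by 0.12 ± 0.04 with AICAR (limma adjusted p = 0.0290), a call lost without any 1 of the 3 DMSO arrays or AICAR replicate 2 or 3 (adjusted p 0.0576 to 0.0808).

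**Figure D4:**
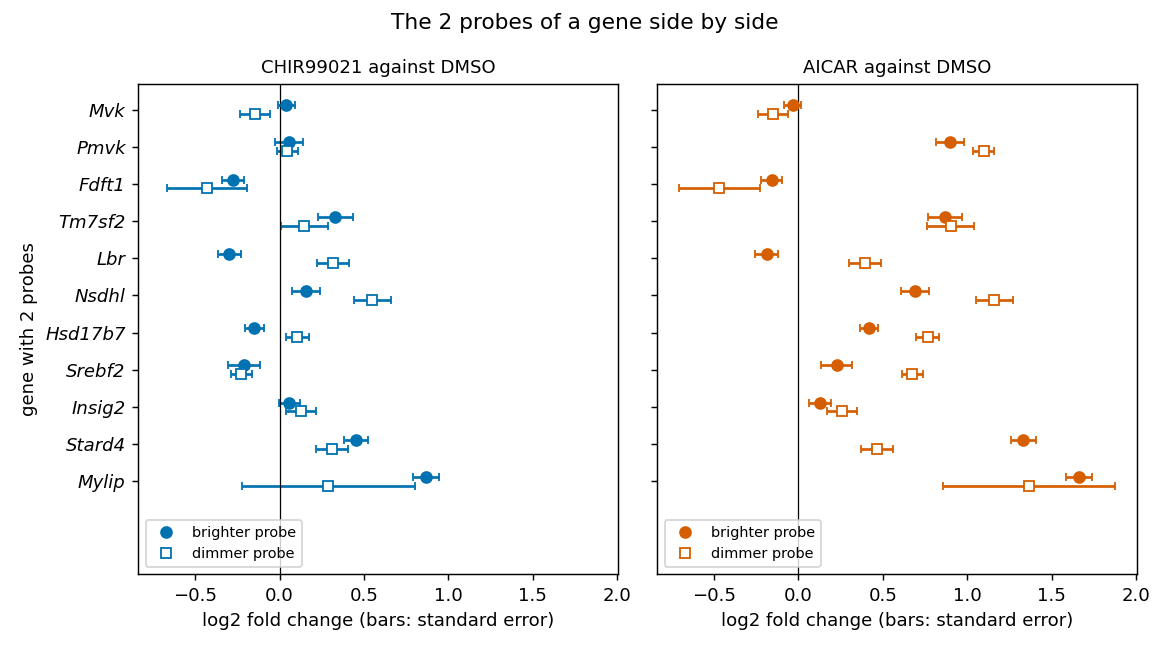
Log2 change against DMSO (x axis) of the brighter probe (filled) and the dimmer probe (open) of the 11 genes with 2 probes (y axis), with CHIR99021 at left, AICAR at right and bars for the standard error. The probes of Lbr fall on opposite sides of 0 in both panels, at -0.30 and 0.32 and at -0.19 and 0.39.

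Both probes gave the same sign for 10 of 11 genes with AICAR and for 8 of 11 with CHIR99021. With AICAR the exception was Lbr. Sizes differed more than signs, as Stard4 changed by 1.33 on the brighter probe and by 0.46 ± 0.10 on the dimmer (limma adjusted p = 0.00374, over all probes). Nsdhl changed by 0.69 on the brighter and by 1.16 ± 0.11 on the dimmer (adjusted p = 6.04e-05). The dimmer probe of Pmvk gave 1.10 ± 0.06 (limma adjusted p = 4.25e-06). With CHIR99021 the genes of opposed sign were Mvk, Lbr and Hsd17b7, whose dimmer probe gave 0.11 ± 0.07 (limma adjusted p = 0.232).

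Of SREBP2 and its regulators, 1 of 4 genes rose and 1 fell with AICAR (30.9% and 29.6% of all features). With CHIR99021 0 of 4 passed the limma test, where 30.4% of all features were called higher and 20.5% lower. At an unadjusted p under 0.05 in limma, 1 of the 4 was lower with CHIR99021. The 4 limma adjusted p-values with CHIR99021 ran from 0.0873 for Srebf2 to 0.558 for Scap. Insig1 (NM_153526), the sterol sensor that retains SCAP and is itself an SREBP2 target, read 0.07, 0.11 and 0.19 in DMSO, -0.11, 0.10 and -0.09 with CHIR99021 and 1.09, 1.00 and 0.82 with AICAR. The AICAR arrays were above all others, and CHIR99021 overlapped DMSO. It rose by 0.85 ± 0.09 with AICAR (limma adjusted p = 7.49e-05). Its paralog Insig2 changed by 0.13 ± 0.06 (adjusted p = 0.111, or 0.0491 without AICAR replicate 1), with 0.26 ± 0.09 on its dimmer probe (limma adjusted p = 0.0345, over all probes). Srebf2 (NM_033218), the gene of SREBP2, read 0.79, 0.79 and 0.70 in DMSO, 0.61, 0.62 and 0.42 with CHIR99021 and 1.17, 0.94 and 0.86 with AICAR. The groups did not overlap, yet neither change passed, at 0.23 ± 0.09 with AICAR (limma adjusted p = 0.0613, or 0.0330 without AICAR replicate 3) and -0.21 ± 0.09 with CHIR99021 (adjusted p = 0.0873, or 0.0363 without AICAR replicate 1). Its dimmer probe passed in both, at 0.67 ± 0.06 with AICAR (limma adjusted p = 5.55e-05) and -0.23 ± 0.06 with CHIR99021 (adjusted p = 0.0197). Over 22 other settings the change of Srebf2 passed in 10 with AICAR and in 11 with CHIR99021. Scap, the escort protein, was called lower with AICAR by a change of -0.18 ± 0.05 (limma adjusted p = 0.0112), and with spike-in scaling this change was 0.000718 and with quantile normalization -0.03 (adjusted p = 0.650).

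Read from the brighter probes, the 3 largest rises and the 2 largest falls with AICAR among the 29 genes were in the arm of transfer, storage and export, although the dimmer probe of Stard4 (0.46) changed less than those of Nsdhl (1.16) and Pmvk (1.10). Of its 6 genes, 3 rose and 2 fell with AICAR (30.9% and 29.6% of all features), and 3 rose and 2 fell with CHIR99021 (30.4% and 20.5%). Stard4 (NM_133774), a soluble carrier of cholesterol between membranes, read 1.08, 1.24 and 1.22 in DMSO, 1.67, 1.68 and 1.55 with CHIR99021 and 2.45, 2.62 and 2.46 with AICAR. The groups did not overlap and stood in the same order as for Cyp51. It rose by 1.33 ± 0.07 with AICAR, or 2.52-fold (limma adjusted p = 2.59e-06), and by 0.45 ± 0.07 with CHIR99021 (adjusted p = 0.00119). Soat1 (NM_009230), which esterifies cholesterol for storage, read -1.87, -1.71 and -1.71 in DMSO, -0.92, -0.99 and -0.88 with CHIR99021 and -1.87, -1.61 and -1.68 with AICAR. The AICAR arrays overlapped DMSO, and the CHIR99021 arrays were above both. It rose by 0.83 ± 0.08 with CHIR99021, or 1.78-fold (limma adjusted p = 8.30e-05), and changed by 0.04 ± 0.08 with AICAR (adjusted p = 0.677).

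Of the exporters, Abcg1 rose with AICAR and fell with CHIR99021, and Abca1 fell with both. Abcg1 (NM_009593), which passes cholesterol to lipoprotein particles, read -1.19, -0.97 and -0.81 in DMSO, -1.499, -1.56 and -1.53 with CHIR99021 and 0.67, 0.64 and 0.44 with AICAR. The AICAR arrays lay far above DMSO and the CHIR99021 arrays below it. It rose by 1.57 ± 0.10 with AICAR, or 2.97-fold (limma adjusted p = 6.42e-06), and fell by 0.54 with CHIR99021 (adjusted p = 0.00277). Abca1 (NM_013454), which loads cholesterol onto lipid-poor apolipoprotein, read -2.63, -2.80 and -2.70 in DMSO, -3.02, -3.33 and -3.11 with CHIR99021 and -3.33, -3.33 and -3.12 with AICAR. Both treatments were below DMSO on all arrays. It fell by 0.44 with CHIR99021 (limma adjusted p = 0.00610) and by 0.55 with AICAR (adjusted p = 0.00154). The AICAR call of Abca1 was lost under spike-in scaling (limma adjusted p = 0.0642).

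Mylip (NM_153789), a ubiquitin ligase that marks lipoprotein receptors for decay and a known LXR target, read -1.15, -0.85 and -0.98 in DMSO, -0.13, -0.18 and -0.08 with CHIR99021 and 0.62, 0.68 and 0.69 with AICAR. The groups were apart, and the AICAR change was the largest of the 29. It rose by 1.66 ± 0.08 with AICAR, or 3.16-fold (limma adjusted p = 1.20e-06), and by 0.87 ± 0.08 with CHIR99021 (adjusted p = 5.45e-05). Its dimmer probe, well above background on 5 of 9 arrays, gave 1.36 ± 0.51 and 0.29 ± 0.51 for AICAR and CHIR99021 (limma adjusted p = 0.0494 and 0.674, over all probes). Nr1h2 (NM_009473), the gene of the receptor LXR-beta, read 4.45, 4.41 and 4.56 in DMSO, 4.45, 4.43 and 4.41 with CHIR99021 and 3.98, 3.95 and 3.86 with AICAR. CHIR99021 overlapped DMSO, and AICAR was below both. It fell by 0.54 with AICAR (limma adjusted p = 8.76e-05) and changed by -0.04 ± 0.06 with CHIR99021 (adjusted p = 0.580).

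Set directly against each other, CHIR99021 was lower than AICAR in 17 of the 29 genes and higher in 4 (limma, adjusted p under 0.05), where 24.6% of all features were called lower and 36.2% higher. The list median was -0.44 against 0.10 over all features. At least 1.5-fold, 11 genes were lower (14.5% of all features) and 1 was higher (13.5%). The gap was widest for Abcg1 at -2.11 ± 0.10, or 4.33-fold (limma adjusted p = 1.24e-06). Insig1 followed at -1.003 ± 0.09, Dhcr7 at -0.97 ± 0.08, Lss at -0.96 ± 0.07 and Mvd at -0.94 ± 0.10, with limma adjusted p between 1.11e-05 and 6.97e-05. The 4 genes higher with CHIR99021 were Soat1 at 0.79 ± 0.08, Nr1h2 at 0.50 ± 0.06, Ebp at 0.38 ± 0.06 and Scap at 0.22 ± 0.05, and of these Soat1 alone passed under spike-in scaling (limma adjusted p of 0.0624 for Nr1h2, 0.268 for Ebp and 0.962 for Scap). Scap was also lost under quantile normalization (0.871). The calls of Stard4 and Mylip were lost on their dimmer probes (limma adjusted p = 0.197 and 0.102). Srebf2, which passed neither test against DMSO, was lower with CHIR99021 than with AICAR by -0.44 ± 0.09 (limma adjusted p = 0.00349). Acat2 was lower by -0.32 ± 0.10 (adjusted p = 0.0255), a call lost without CHIR99021 replicate 1 or 3 (adjusted p 0.0593 to 0.0705). Idi1 was -0.13 ± 0.06 (adjusted p = 0.0746, or 0.0113 without AICAR replicate 1). Scaling to the spike-ins gave 23 genes lower and 1 higher in the list, and 8121 lower and 3618 higher over all features in place of 6606 and 9722. With quantile normalization the list gave 24 and 3, with all features at 7586 lower and 7810 higher. With the 75th percentile of detected probes they gave 23 and 3, with 8537 and 6713 over all features.

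Neighbouring genes that are not on the list were taken from 6 fixed lists. In the other isoprenoid branches, which lead to ubiquinone, dolichol and prenylated proteins, 4 of 13 genes were called higher and 3 lower with AICAR (30.9% and 29.6% of all features) and 9 higher and 0 lower with CHIR99021 (30.4% and 20.5%, with 0 lower also at an unadjusted p under 0.05 in limma). Pdss1, which makes the ubiquinone side chain, rose by 0.77 ± 0.05 with CHIR99021 (limma adjusted p = 8.63e-06) and was -0.08 ± 0.05 with AICAR (adjusted p = 0.165). Fntb, a subunit of protein farnesyltransferase, rose by 0.34 ± 0.05 with CHIR99021 and fell by 0.56 with AICAR (limma adjusted p = 0.000956 and 4.33e-05). Of 11 genes of SREBP processing, 4 were higher and 4 lower with AICAR, and 4 higher and 2 lower with CHIR99021, against the same shares. Spring1, a regulator of the protease that cuts SREBPs, fell by 0.97 with AICAR (limma adjusted p = 2.74e-05).

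Among 19 other genes of sterol transport and storage, 14 were called higher and 2 lower with AICAR, and 8 higher and 5 lower with CHIR99021, where the shares of all features were 30.9% and 29.6%, and 30.4% and 20.5%. Scarb1, a receptor that takes up cholesterol from lipoproteins, rose by 1.12 ± 0.07 with AICAR and 0.45 ± 0.07 with CHIR99021 (limma adjusted p = 4.26e-06 and 0.000876). Abca7, a transporter related to Abca1, rose by 1.41 ± 0.05 with AICAR and fell by 0.24 with CHIR99021 (adjusted p = 5.22e-07 and 0.00689). Lrp8, a lipoprotein receptor that Mylip can target, rose by 1.22 ± 0.07 with CHIR99021 and 0.86 ± 0.07 with AICAR (limma adjusted p = 3.85e-06 and 1.44e-05). Soat2, the relative of Soat1, fell by 1.04 with CHIR99021 (adjusted p = 3.03e-05), the opposite of Soat1. Npc2, which hands on cholesterol in lysosomes, rose by 0.98 ± 0.06 with CHIR99021 and 0.55 ± 0.06 with AICAR (limma adjusted p = 8.63e-06 and 0.000119).

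Of 12 oxysterol and LXR genes, 9 passed the filter on dim probes and Ch25h, Abcg5 and Abcg8 did not. With AICAR 3 of the 9 were higher and 2 lower (30.9% and 29.6% of all features), and with CHIR99021 2 were higher and 1 lower (30.4% and 20.5%). Rxra, a partner of the LXR receptors, rose by 0.64 ± 0.09 with AICAR while Rxrb fell by 0.53 (limma adjusted p = 0.000495 and 0.000144). Of 16 genes of fatty acid synthesis and SREBP1, 11 were higher and 1 lower with AICAR, and 7 higher and 3 lower with CHIR99021, against the same shares. Thrsp changed most in this list, by 2.31 ± 0.05 with AICAR and -1.33 ± 0.05 with CHIR99021 (limma adjusted p = 8.10e-08 and 1.00e-06). Acss2, which makes cytosolic acetyl-CoA from acetate, rose by 1.04 ± 0.06 with AICAR (limma adjusted p = 3.70e-06) and was 0.09 ± 0.06 with CHIR99021 (adjusted p = 0.247). Me1 rose more with CHIR99021, by 0.83 ± 0.07 against 0.25 ± 0.07 with AICAR (limma adjusted p = 3.38e-05 and 0.0109). Of 8 sterol-binding and membrane scaffold genes, 7 passed the filter and Cav1 did not, and 3 were higher and 3 lower with AICAR, and 2 higher and 2 lower with CHIR99021, against the same shares. Flot1, a scaffold protein of membrane rafts, rose by 0.78 ± 0.07 with AICAR and fell by 0.73 with CHIR99021 (limma adjusted p = 5.47e-05 and 0.000117).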

How the data were processed

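RNA of 9 samples, 3 a group, was labelled with Cy3 and hybridised to 1-colour Agilent mouse arrays. Per the file headers, the authors' scans were read with Agilent Feature Extraction 10.7.3.1 (10.7 in the submitters' processing notes) on a design annotated to mm9. The deposited scanner files give spot intensity, already background-corrected, and the authors' deposited value table gives log2 values of the same arrays, which correlated with the log2 intensity at 0.998 to 1.00 and had medians of 5.18. The scale of that table is log2 and its centring is unknown.

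Leaving out control spots kept 59305 spots of 55681 probes, 27235 with a gene symbol. Of these spots, 136 to 192 an array were outliers. They were left out of the probe values but not out of the 75th percentile. Intensities were set relative to the 75th percentile of each array (567 to 617), as log2, and spots of a probe were averaged. The brightest probe stood for a gene. Probes well above background on at least 3 of 9 arrays were kept. limma 3.58.1 in R 4.3.3 fitted all 3 groups (lmFit, eBayes), with Benjamini-Hochberg adjustment over 26864 features and a threshold of 0.05. The count of arrays, 3 a group, limits the precision. The fit was tested on simulated data.

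The 29 members and the other lists were chosen with earlier results of these data known. All members are named, and up to 4 called genes with the largest change were eligible from each other list. Same-numbered replicates deviated together at -0.055 to 0.088, so little shared deviation was seen. This cannot settle whether the numbers pair the samples, and the main fit did not pair them. Alternatives changed the background correction, scaling, filter, probe rule and arrays used.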

Additional observations from a re-analysis of the deposited data

How the results depend on the processing

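Each of the 3 comparisons was repeated under 22 other settings. With AICAR, 18 of the 23 called genes of the list kept direction and call in all of them, with CHIR99021 6 of 15 (Abca1, Abcg1, Ebp, Lss, Soat1 and Stard4), and between the treatments 15 of 21. Leaving out 1 array at a time gave 17 to 19 genes higher and 3 to 4 lower with AICAR, 5 to 7 and 6 to 9 with CHIR99021, and 4 higher and 16 to 19 lower between the treatments.

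Spike-in scaling left 4 genes lower with CHIR99021 in place of 9, 8807 features called with CHIR99021 in place of 13696, 1 gene lower with AICAR in place of 4, and 1 gene higher between the treatments in place of 4. The genes lower with AICAR numbered 2 under quantile normalization, 2 under the 75th percentile of detected probes and 2 with the deposited value table. Spike-in scaling moved the all-feature median of CHIR99021 against AICAR from 0.10 to -0.13, and of AICAR against DMSO from 0.03 to 0.21.

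Some directions turned. Against DMSO with CHIR99021, Lbr was 0.0097 as the mean of its probes and 0.32 on its dimmer probe, and Hsd17b7 was 0.11 on its dimmer probe. With AICAR, Lbr was 0.000264 under quantile normalization, 0.0020 with the value table, 0.10 as the mean of its probes and 0.39 on the dimmer probe. Mvk was 0.13 under both quantile normalization and the value table, and Scap 0.000718 under spike-in scaling. Between the treatments, Mvk was -0.16 under quantile normalization and with the value table. Coq2 was -0.20 under quantile normalization, -0.13 with the percentile of detected probes and -0.21 with the value table, and Pgrmc1 was -0.043, -0.081 with spike-ins and -0.046 with the table. Spike-in scaling turned Scap to -0.0087 and Rnf139 to -0.024. The cause was not tested.

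With the replicate block, the counts were 18 higher and 3 lower with AICAR, 5 and 7 with CHIR99021, and 4 and 16 between the treatments. Same-numbered replicates shared little deviation (-0.055 to 0.088), which cannot settle whether the numbers pair the samples. Normexp on the mean signal was not run, since that column was not used here, and the median signal took its place, a choice made after seeing the data, as were the dimmer probe, each probe on its own, the dimmer probe of Lbr alone, and the removal of AICAR replicates 1 and 3, which leaves 1 array in that group. With 1 slide a group, no fit can part slide from treatment, and the 3 arrays a group limit small changes such as those of Hmgcs1 and Sc5d.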
